A study of Arabidopsis thaliana with 24 samples.

Results

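The 9 genes described here are ATAF-type and related stress NAC factors of Arabidopsis thaliana: NAC081 (ATAF2, AT5G08790), NAC102 (AT5G63790), NAC002 (ATAF1, AT1G01720), NAC032 (AT1G77450), NAC019 (AT1G52890), NAC055 (AT3G15500), NAC072 (RD26, AT4G27410), NAC001 (AT1G01010) and NAC003 (AT1G02220). They were taken by locus from the 32833 gene loci of the count tables. They are 9 of 121 loci found by a text search for NAC in the RefSeq names, products and synonyms of TAIR10.1, called NAC loci below. The search also matched synonyms, so loci that are not NAC domain proteins can be among the 121 and enter the shares, ranks and counts. The 9 genes were selected on earlier measured values of these same libraries, but the rule records neither the comparison nor a threshold. Every level and NAE effect of these genes is thus given as a description. Counts of these genes past a threshold are therefore a description and carry no weight as evidence about the family. All 9 passed the filter on low counts at both times.

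NAC proteins are plant-specific transcription factors that bind DNA through a conserved domain at the start of the protein and regulate transcription through a variable end. The ATAF branch (NAC002, NAC032, NAC081 and NAC102) is known from responses to wounding, dehydration, abscisic acid, carbon starvation and reactive chemicals. NAC019, NAC055 and NAC072 form another stress branch, induced by abscisic acid, drought and jasmonate, whose members act on stress genes, senescence and chlorophyll breakdown.

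RNA was sequenced from whole seedlings aged 4 days. At 1 h and again at 3 h there were 4 groups of 3 libraries each, 24 libraries in all: agb1 given 40 µM NAE 18:3, agb1 given 0.2% DMSO, wild-type Col-0 (WT) given 40 µM NAE 18:3, and WT given 0.2% DMSO. NAE 18:3 is N-linolenoylethanolamine, a lipid amide of the N-acylethanolamine class, which is known to slow seedling growth. The agb1 line is in the Col-0 background and mutant in AGB1, which encodes the G beta protein of the heterotrimeric complex; the labels do not name its allele. All seedlings grew in shaken liquid medium with 1% sucrose at 21 °C, and each library pooled many seedlings. Nothing in the labels says whether replicates were separate cultures, so p-values measure only the spread between these samples.

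Libraries held 18001981 to 61937044 counted reads. At 3 h depth followed genotype, with 35982747 to 51894994 reads in agb1 and 19954891 to 25799623 in WT. AGB1 transcript was present in agb1: it averaged 36.1 and 28.2 CPM in agb1 seedlings at 3 h under NAE and DMSO, against 112 and 51.7 CPM in WT seedlings. At 1 h the averages were 44.3 and 44.5 CPM in agb1 under NAE and DMSO, against 56.7 and 50.1 CPM in WT. Between agb1 and WT at 1 h, AGB1 was lower under NAE, with no overlap of the libraries (log2 fold change -0.36, SE 0.09, adjusted p = 0.0225), and overlapped under DMSO (-0.16, SE 0.09, adjusted p = 0.245). All 5 leaf markers and all 10 root markers were detected in every library, and the 6 seed storage markers summed to at most 2.17 CPM.

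Levels below are CPM, counted reads brought to a common library size, with TMM scaling over the 24 libraries, listed for replicates 1, 2 and 3. In whole seedlings, a change in RNA per cell and a change in the share of the cells that express a gene cannot be told apart. Fold changes are log2 values with standard errors (SE) from edgeR's quasi-likelihood test at one time point, and a gene is called at a Benjamini-Hochberg adjusted p below 0.05 over all genes tested.

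**Figure D1:**
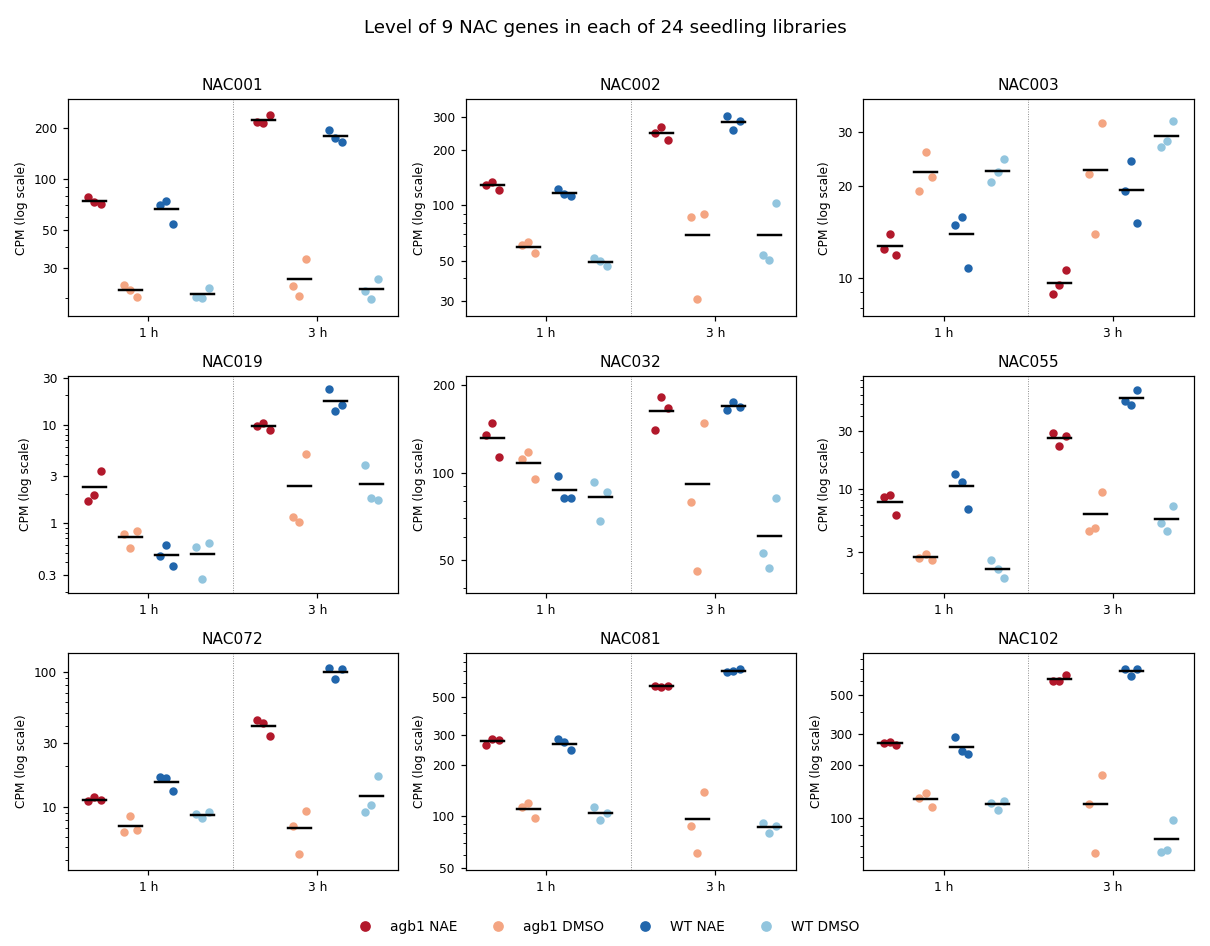
Level of each of the 9 genes in the 24 libraries, in CPM on a log axis, by time and group; points are libraries and black lines group means. Under DMSO at 3 h the 3 agb1 libraries are spread far apart for most genes, while the NAE groups at 3 h are tight: NAC081 was between 569 and 579 CPM in agb1 and between 694 and 724 CPM in WT.

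NAE 18:3 raised most of the 9 genes in both genotypes. In agb1 at 1 h, 7 rose and 1 fell, at a time when 8.89% of all tested genes were called higher and 4.92% lower. In WT at 1 h, 6 rose and 1 fell, beside 12.4% and 8.02% of all genes. In agb1 at 3 h, 8 rose and 1 fell, beside 24.5% and 26% of all genes. In WT at 3 h, 8 rose and none fell, beside 29.4% and 29.1% of all genes. The median log2 fold change of the 9 was 1.13 in agb1 and 1.11 in WT at 1 h, and 2.11 in agb1 and 2.99 in WT at 3 h, beside medians over all tested genes of 0, -0.02, -0.03 and 0. Some root markers moved with the treatment: of 10, 3 rose in agb1 and 4 in WT at 1 h and none fell, and 2 rose and 1 fell in agb1 and 3 rose and 1 fell in WT at 3 h. WOX5, a marker of the root quiescent centre, rose in all 4 comparisons, by 1.78 in agb1 and 1.09 in WT at 1 h and by 3.65 in agb1 and 4.3 in WT at 3 h. SCR was the root marker that fell at 3 h, with log2 fold changes of -1.09 in agb1 and -1.05 in WT, and it was not called at 1 h. The summed root markers at 1 h were 143 to 146 CPM in agb1 under NAE, against 115 to 135 CPM under DMSO, and 127 to 152 CPM in WT under NAE, against 116 to 134 CPM under DMSO. At 3 h the root markers that rose, 20% in agb1 and 30% in WT, were near the shares of all genes. Of the 5 leaf markers, none was called at 1 h. At 3 h LHCB2.1 fell in agb1 (-0.67) and WT (-2.11), as did CA1 (-0.89 and -0.97). LHCB1.3 rose in agb1 at 3 h (0.41) and was not called in WT (0.13). The part of the root and leaf markers in the NAE effects was not tested.

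NAC081 (ATAF2), known from wounding and pathogen responses and from the control of brassinosteroid breakdown, and NAC102, known from low-oxygen germination, were the most abundant pair. NAC081 stood at 261, 282 and 279 CPM in agb1 under NAE at 1 h, against 114, 119 and 98.5 CPM under DMSO. In WT it stood at 282, 270 and 243 CPM under NAE, against 114, 95.8 and 105 CPM under DMSO. The NAE libraries of each genotype lay well above all DMSO libraries, and the genotypes interleaved. The log2 fold change was 1.33 (SE 0.09, adjusted p = 1.86e-07) in agb1 and 1.37 (SE 0.09, adjusted p = 1.07e-07) in WT. At 3 h NAC081 reached 579, 569 and 573 CPM in agb1 under NAE, against 88.5, 61.3 and 139 CPM under DMSO. WT libraries held 694, 702 and 724 CPM under NAE, against 91.6, 80.2 and 88.3 CPM under DMSO. Every WT library under NAE was above every agb1 library under NAE, whereas the DMSO libraries of the genotypes overlapped. The log2 fold change was 2.58 (SE 0.22, adjusted p = 5.59e-07) in agb1 and 3.03 (SE 0.22, adjusted p = 1.05e-07) in WT.

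NAC102 followed NAC081 closely, and their log2 levels correlated at r = 0.98 over the 24 libraries, a description of libraries that share their treatments. It stood at 267, 272 and 260 CPM in agb1 under NAE at 1 h, against 131, 139 and 116 CPM under DMSO. WT libraries had 290, 241 and 232 CPM under NAE, against 122, 112 and 126 CPM under DMSO. Both genotypes showed a clear gap between treatments. It rose by 1.07 (SE 0.09, adjusted p = 2.18e-06) in agb1 and 1.11 (SE 0.09, adjusted p = 1.1e-06) in WT on the log2 scale. After 3 h NAC102 was at 602, 605 and 654 CPM in agb1 under NAE, against 121, 63.7 and 177 CPM under DMSO. In WT it was at 702, 643 and 703 CPM under NAE, against 64.7, 66 and 97.9 CPM under DMSO. All NAE libraries were far above all DMSO libraries, and the DMSO libraries of agb1 were unusually uneven. It rose by 2.36 (SE 0.29, adjusted p = 1.8e-05) in agb1 and 3.17 (SE 0.3, adjusted p = 1.24e-06) in WT.

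Both loci overlap a gene on the other strand, and the strand setting of the authors' counting is not given in the sources used here. SHA1 (AT5G63780), which overlaps NAC102, averaged 8.99 CPM in agb1 under NAE and 35.2 CPM in agb1 under DMSO at 3 h, and 7.19 CPM in WT under NAE and 56.2 CPM in WT under DMSO. It fell while NAC102 rose, by 1.97 (SE 0.16, adjusted p = 2.55e-07) in agb1 and 2.96 (SE 0.17, adjusted p = 7.63e-09) in WT on the log2 scale. AT5G08780, which overlaps NAC081, averaged between 2.89 and 7.5 CPM in all 8 groups, a small part of the NAC081 level. Reads of overlapping partners could not be separated here.

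NAC002 (ATAF1) is known to act in abscisic acid synthesis, carbon starvation and senescence. At 1 h it stood at 129, 133 and 121 CPM in agb1 under NAE, against 60.6, 62.8 and 54.8 CPM under DMSO. In WT it stood at 122, 115 and 112 CPM under NAE, against 51.7, 49.5 and 46.5 CPM under DMSO. Treatments did not overlap in either genotype, and every agb1 DMSO library was above every WT DMSO library. The rise was 1.13 (SE 0.07, adjusted p = 1.06e-07) in agb1 and 1.27 (SE 0.07, adjusted p = 2.61e-08) in WT on the log2 scale. At 3 h the gene had 247, 265 and 226 CPM in agb1 under NAE, against 86.4, 31 and 89.9 CPM under DMSO. WT had 305, 257 and 288 CPM under NAE, against 53.8, 50.5 and 103 CPM under DMSO. Replicate 2 of agb1 was low and replicate 3 of WT high among the DMSO libraries, yet no DMSO library reached an NAE library. The rise was 1.83 (SE 0.34, adjusted p = 7e-04) in agb1 and 2.04 (SE 0.35, adjusted p = 0.000243) in WT. NAC002 also overlaps genes on the other strand (AT1G01725 and AT1G04043).

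NAC032, known from senescence and oxidative stress, responded least among the ATAF branch. At 1 h it stood at 135, 149 and 113 CPM in agb1 under NAE, against 112, 118 and 95.4 CPM under DMSO. WT libraries had 97.8, 81.6 and 81.9 CPM under NAE, against 93.1, 68.1 and 85.9 CPM under DMSO. The treatments overlapped in both genotypes. The log2 fold change at 1 h was 0.31 (SE 0.13, adjusted p = 0.151) in agb1 and 0.11 (SE 0.13, adjusted p = 0.589) in WT. By 3 h it averaged 163 ± 22 CPM in agb1 under NAE (SD, n = 3, lowest 140 CPM), against 79.5, 45.8 and 149 CPM under DMSO. In WT it had 165, 176 and 169 CPM under NAE, against 53.1, 46.9 and 81.7 CPM under DMSO. WT treatments were separate, but in agb1 the highest DMSO library lay above the lowest NAE library. The rise at 3 h was 1.49 (SE 0.33, adjusted p = 0.00172) in WT. In agb1 the log2 fold change was 0.84 (SE 0.32, adjusted p = 0.0459), a call that was lost in 14 of 17 alternative analyses, 10 of them leaving out 1 library. Without replicate 2 of agb1 under DMSO it was 0.52 (adjusted p = 0.135), and without replicate 3 it was 1.4 (adjusted p = 0.00102).

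**Figure D2:**
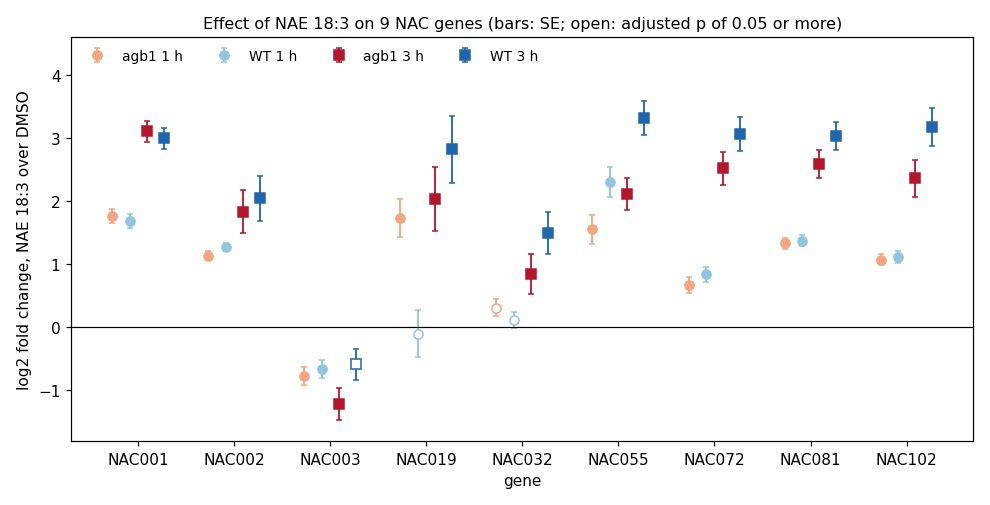
Log2 fold change of NAE 18:3 over DMSO for each gene in agb1 and WT at 1 h and 3 h, with SE bars; open symbols have an adjusted p of 0.05 or more. NAC003 lies below 0 in all 4 comparisons, NAC032 is near 0 at 1 h, and NAC019 at 1 h is at 1.73 in agb1 and -0.1 in WT.

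NAC055 and NAC072 (RD26) act in abscisic acid and jasmonate responses, and RD26 also counteracts brassinosteroid growth signals. NAC055 was scarce under DMSO. At 1 h it had 8.43, 8.86 and 6.07 CPM in agb1 under NAE, against 2.64, 2.87 and 2.57 CPM under DMSO. WT had 13.2, 11.3 and 6.71 CPM under NAE, against 2.53, 2.15 and 1.8 CPM under DMSO. All NAE libraries were above all DMSO libraries, and the lowest WT library under NAE fell inside the agb1 range. NAC055 rose by 1.55 (SE 0.23, adjusted p = 0.000331) in agb1 and 2.3 (SE 0.24, adjusted p = 1.22e-05) in WT on the log2 scale. At 3 h it had 29.1, 22.7 and 27.2 CPM in agb1 under NAE, against 4.41, 4.68 and 9.28 CPM under DMSO. In WT the values were 53, 49.7 and 65.3 CPM under NAE, against 5.18, 4.44 and 7.22 CPM under DMSO. WT libraries under NAE were all above agb1 libraries under NAE, while the DMSO ranges of the genotypes overlapped. The rise was 2.11 (SE 0.26, adjusted p = 1.65e-05) in agb1 and 3.32 (SE 0.27, adjusted p = 3.21e-07) in WT, the largest log2 fold change of the 9 genes in WT at 3 h.

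NAC072 was at 11, 11.8 and 11.2 CPM in agb1 under NAE at 1 h, against 6.48, 8.54 and 6.69 CPM under DMSO. It was at 16.7, 16.3 and 13 CPM in WT under NAE, against 8.77, 8.22 and 9.11 CPM under DMSO. Treatments were separate in both genotypes, and each WT library under NAE was above each agb1 library under NAE. Its log2 fold change was 0.67 (SE 0.12, adjusted p = 0.00133) in agb1 and 0.84 (SE 0.12, adjusted p = 0.000155) in WT. By 3 h it stood at 44.1, 42.2 and 33.6 CPM in agb1 under NAE, against 7.15, 4.43 and 9.37 CPM under DMSO. WT libraries stood at 108, 89.2 and 105 CPM under NAE, against 9.15, 10.3 and 16.9 CPM under DMSO. The lowest WT library under NAE held more than any agb1 library under NAE. Its log2 fold change was 2.52 (SE 0.26, adjusted p = 4.69e-06) in agb1 and 3.06 (SE 0.27, adjusted p = 6.36e-07) in WT.

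NAC019, a close relative of NAC055 and NAC072, was the least abundant of the 9 at 1 h. It then rested on 70, 53 and 157 reads in agb1 under NAE, 53, 18 and 33 reads in agb1 under DMSO, 16, 22 and 14 reads in WT under NAE, and 27, 5 and 28 reads in WT under DMSO. As CPM, agb1 had 1.7, 1.95 and 3.43 under NAE against 0.774, 0.555 and 0.824 under DMSO, and WT had 0.462, 0.603 and 0.367 under NAE against 0.579, 0.269 and 0.622 under DMSO. Only the agb1 NAE libraries stood clear of the rest, with replicate 3 the highest. The log2 fold change was 1.73 (SE 0.3, adjusted p = 0.00116) in agb1 and -0.1 (SE 0.37, adjusted p = 0.871) in WT. At 3 h it had 9.81, 10.6 and 8.92 CPM in agb1 under NAE, against 1.15, 1.02 and 5.04 CPM under DMSO. In WT it had 23, 13.8 and 15.9 CPM under NAE, against 3.93, 1.81 and 1.72 CPM under DMSO. Treatments were separate in both genotypes, although replicate 3 of agb1 under DMSO was several times higher than the other DMSO libraries of agb1. NAC019 rose by 2.03 (SE 0.5, adjusted p = 0.00444) in agb1 and 2.82 (SE 0.53, adjusted p = 0.000493) in WT. Without that library the rise in agb1 was 3.19 (adjusted p = 5.8e-06).

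NAC001 showed the largest log2 fold change of the 9 genes in agb1 at 3 h, and at 1 h it was within error of that of NAC019. It stood at 78, 73.3 and 71.8 CPM in agb1 under NAE at 1 h, against 23.8, 22.2 and 20.4 CPM under DMSO. In WT it stood at 70.1, 74.6 and 54.6 CPM under NAE, against 20.2, 20 and 23 CPM under DMSO. The treatments were far apart and the genotypes overlapped. The log2 fold change was 1.76 (SE 0.11, adjusted p = 6.48e-08) in agb1 and 1.68 (SE 0.11, adjusted p = 7.75e-08) in WT. At 3 h it reached 218, 213 and 237 CPM in agb1 under NAE, against 23.4, 20.5 and 34.1 CPM under DMSO. WT reached 195, 175 and 166 CPM under NAE, against 22, 19.6 and 25.9 CPM under DMSO. Here every agb1 library under NAE was above every WT library under NAE, the reverse of NAC055, NAC072, NAC019, NAC081 and NAC003. The log2 fold change was 3.1 (SE 0.17, adjusted p = 1.07e-08) in agb1 and 2.99 (SE 0.17, adjusted p = 1.01e-08) in WT.

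NAC003 moved the other way. At 1 h it had 12.4, 13.9 and 11.9 CPM in agb1 under NAE, against 19.2, 25.8 and 21.3 CPM under DMSO. WT had 14.9, 15.8 and 10.8 CPM under NAE, against 20.5, 22.1 and 24.4 CPM under DMSO. Every NAE library was below every DMSO library of either genotype. NAC003 fell by 0.77 (SE 0.14, adjusted p = 0.00186) in agb1 and by 0.66 (SE 0.14, adjusted p = 0.00484) in WT on the log2 scale. At 3 h it had 8.9, 9.48 and 10.6 CPM in agb1 under NAE, against 21.8, 13.9 and 31.9 CPM under DMSO. In WT it had 19.2, 24 and 15.1 CPM under NAE, against 26.8, 28 and 32.6 CPM under DMSO. Groups were separate in both genotypes, with agb1 under NAE the lowest of all. It fell by 1.22 (SE 0.25, adjusted p = 0.00116) in agb1. In WT the log2 fold change at 3 h was -0.59 (SE 0.25, adjusted p = 0.0562), which was past the threshold in 5 of 17 alternative analyses, DESeq2 among them. Those 5 also include leaving out replicate 2 of WT under NAE (-0.77, adjusted p = 0.0321), or replicate 2 or 3 of agb1 under DMSO (-0.63 in both, adjusted p = 0.00638 and 0.012).

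The effect of NAE at 3 h was compared with that at 1 h in one fit over the 24 libraries. The tables of the time points were deposited separately, so a difference between times cannot be told apart from a difference between tables, although each NAE effect is taken within its own table. In agb1 the effect was larger at 3 h for 4 genes, NAC001, NAC072, NAC081 and NAC102, by log2 differences of 1.27 to 1.87, beside 17% of all tested genes called higher and 17.5% called lower. In WT it was larger for 7 genes, NAC001, NAC019, NAC032, NAC055, NAC072, NAC081 and NAC102, by 1.06 to 2.97, beside 25.2% and 22.8% of all genes. NAC072 had the largest difference in agb1, 1.87 (SE 0.3, adjusted p = 6.5e-05), and NAC019 in WT, 2.97 (SE 0.79, adjusted p = 0.00403). NAC002 had 0.73 (SE 0.38, adjusted p = 0.157) in agb1 and 0.8 (SE 0.39, adjusted p = 0.0973) in WT, and NAC003 had -0.42 (SE 0.31, adjusted p = 0.311) and 0.1 (SE 0.31, adjusted p = 0.817). The count in agb1 rested on 1 library: without replicate 3 of agb1 under DMSO at 3 h, 7 of the 9 genes were called, with NAC019 (1.46, adjusted p = 0.0184), NAC032 (1.1, adjusted p = 0.00604) and NAC055 (1.01, adjusted p = 0.0174) added. Without replicate 2 of that group, NAC003 was called (-0.68, adjusted p = 0.0406). In WT, NAC002 was called without replicate 3 of WT under DMSO at 3 h (1.2, adjusted p = 0.00867), and the NAC055 call was lost without any of 5 WT libraries (replicate 1 under DMSO and 3 under NAE at 1 h, and replicates 1 and 2 under DMSO and 3 under NAE at 3 h), with values of 0.82 to 0.95 and adjusted p-values of 0.078 to 0.11.

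Whether agb1 changed the response to NAE was tested as the difference of the log2 NAE effects, agb1 minus WT. At 1 h edgeR called none of the 9 genes, beside 0.0753% of all tested genes, and 2 had an unadjusted p below 0.05. These were NAC019, with 1.83 (SE 0.48, adjusted p = 0.361), and NAC055, with -0.75 (SE 0.32, adjusted p = 0.535). DESeq2 called none at 1 h either. For NAC019, however, only 15 alternative analyses gave an adjusted p, against 16 for NAC055. DESeq2 may thus have given none for NAC019, and its lack of a call for that gene carries no weight. At 3 h none was called by edgeR in the design used throughout, beside 2.97% of all genes, and only NAC055 had an unadjusted p below 0.05. Its difference was -1.22 (SE 0.36, adjusted p = 0.0883), and DESeq2 called it (adjusted p = 0.0295). The other differences at 3 h were between -0.8 for NAC102 (SE 0.39) and 0.11 for NAC001 (SE 0.23), and 8 of the 9 were below 0. The median was -0.63 for the 9 genes and -0.02 over all tested genes. The NAE effects of agb1 at 3 h rest on the uneven DMSO group. Without its replicate 2, NAC055 (-1.34, adjusted p = 0.0489) and NAC102 (-1.06, adjusted p = 0.0237) were called, and without its replicate 3 the NAC055 difference was -0.72 (adjusted p = 0.186). Without that replicate 3, NAC001 (0.42), NAC002 (0.09) and NAC019 (0.41) were above 0, and the others ran between -0.72 for NAC055 and -0.03 for NAC081. The count of 8 below 0 thus depends on that library.

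**Figure D3:**
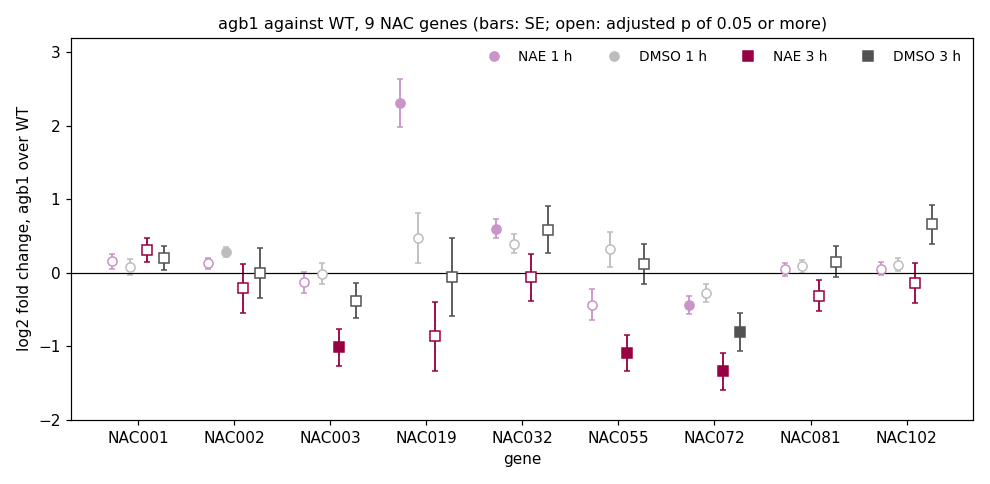
Log2 fold change of agb1 over WT for each gene under NAE and under DMSO at 1 h and 3 h, with SE bars; open symbols have an adjusted p of 0.05 or more. Filled symbols include NAC019 under NAE at 1 h at 2.31 and, under NAE at 3 h, NAC003 at -1.01, NAC055 at -1.09 and NAC072 at -1.34.

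Set directly against WT under NAE at 3 h, agb1 seedlings held less of 3 of the 9 genes and more of none, beside 13.7% of all tested genes called lower and 9.24% called higher. NAC072 was lower by a log2 fold change of -1.34 (SE 0.25, adjusted p = 0.00222), NAC055 by -1.09 (SE 0.24, adjusted p = 0.00672) and NAC003 by -1.01 (SE 0.25, adjusted p = 0.0129). In the libraries, 5 genes were lower in every agb1 library than in every WT library (NAC003, NAC019, NAC055, NAC072 and NAC081) and NAC001 was higher in every one, where 24% and 20.4% of all genes were separated in these directions. NAC019 had -0.86 (SE 0.47, adjusted p = 0.21). With only the 6 libraries compared in the fit, NAC001, NAC019 and NAC081 were called as well, at adjusted p-values of 0.0138, 0.00522 and 0.019. NAC055 and NAC072 were called in all 17 alternatives, and the NAC003 call was lost without replicate 1 of agb1 (-0.95, adjusted p = 0.0532) or without replicate 2 of WT (-0.82, adjusted p = 0.0607) under NAE. Without replicate 3 of agb1 under DMSO, NAC001 (0.34, adjusted p = 0.0463) and NAC019 (-0.82, adjusted p = 0.0322) were called too.

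Under NAE at 1 h, 2 of the 9 genes were higher in agb1 and 1 was lower, beside 4.08% and 4.89% of all genes. NAC019 had a log2 fold change of 2.31 (SE 0.33, adjusted p = 0.000609), called in all 17 alternatives. NAC032 had 0.6 (SE 0.13, adjusted p = 0.0115), with the call lost without replicate 2 of agb1 (0.5, adjusted p = 0.0508) or of WT (0.56, adjusted p = 0.0544). NAC072 had -0.44 (SE 0.12, adjusted p = 0.0314), with the call lost without any 1 of the agb1 libraries or without replicate 1 or 2 of WT under NAE (-0.47 to -0.37, adjusted p = 0.0658 to 0.121). Without replicate 3 of WT under NAE, NAC055 was called at -0.66 (adjusted p = 0.0295). NAC072 was thus lower in agb1 under NAE at both times.

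Under DMSO 1 of the 9 genes was called at each time. At 1 h it was NAC002, higher in agb1 by 0.28 (SE 0.07, adjusted p = 0.026), beside 5.63% of all genes called higher and 5.75% lower. That call was lost without replicate 1 or 2 of agb1, or 1 or 3 of WT, under DMSO (0.23 to 0.31, adjusted p = 0.0505 to 0.123), and NAC032 (0.4, adjusted p = 0.0614) was called without replicate 3 of agb1 under DMSO (0.49, adjusted p = 0.0375) or under NAE (0.4, adjusted p = 0.0381). At 3 h it was NAC072, with -0.8 (SE 0.26, adjusted p = 0.0492), beside 7.84% higher and 11.1% lower. Its libraries overlapped, and 13 of 17 alternatives lost the call; without replicate 3 of WT under DMSO it was -0.48 (adjusted p = 0.219). The uneven agb1 group decided others: NAC032 (0.9, adjusted p = 0.0347) and NAC102 (0.95, adjusted p = 0.00352) were called without its replicate 2, and NAC003 (-0.75, adjusted p = 0.0335) and NAC019 (-1.24, adjusted p = 0.0318) without its replicate 3. None of the 9 genes separated the DMSO libraries of the genotypes at 3 h. Of all genes, 17.5% were higher in every agb1 library than in every WT library there, and 18.3% were lower. The leaf markers differed between the same groups: their summed level was 20300 to 22700 CPM in agb1 under DMSO at 3 h, against 31400 to 41100 CPM in WT, and under NAE at 3 h it was 23600 to 26300 CPM in agb1, against 32800 to 39100 CPM in WT. The summed root markers lay between 109 and 198 CPM in all 3 h libraries. Under NAE at 3 h they did not overlap, with 110 to 133 CPM in agb1 and 136 to 198 CPM in WT. Under DMSO at 3 h the genotypes overlapped. All 10 root markers had log2 fold changes below 0 between agb1 and WT under NAE at 3 h. Their median was -0.55 and the highest -0.07, and none was called. The part of these markers in the agb1 values was not tested.

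The DMSO libraries at 3 h were less alike than any other group. For the median gene of the 9, the highest library of agb1 under DMSO at 3 h was 2.29 times the lowest, and at most 4.92 times, for NAC019. In WT under DMSO at 3 h the median ratio was 1.63, and it was 1.18 in both NAE groups at 3 h and 1.1 to 1.29 in the 4 groups at 1 h. Replicate 3 of agb1 under DMSO held the highest value for all 9 genes, NAC003 included, and replicate 2 the lowest for 8 of them. Over all tested genes, these libraries were highest and lowest of their group for 34.3% and 32%. Since the fit shares 1 estimate of the spread over the 12 libraries, this spread enters every SE at 3 h, also between the NAE groups: for NAC019 between agb1 and WT under NAE it was 0.47, and 0.25 without replicate 3 of agb1 under DMSO.

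Levels were compared between genes per kilobase of exon. Under NAE at 3 h the order in agb1 was NAC102 (391 ± 18.6 CPM per kb, SD, n = 3), NAC081 (375 ± 3.3), NAC002 (149 ± 11.8), NAC001 (132 ± 7.58), NAC032 (94.4 ± 12.7), NAC072 (21.1 ± 2.95), NAC055 (17.1 ± 2.14), NAC019 (7.18 ± 0.606) and NAC003 (6.09 ± 0.56). The ranges of NAC002 and NAC001, of NAC072 and NAC055, and of NAC019 and NAC003 overlapped. In WT it was NAC081 (462 ± 10), NAC102 (431 ± 21.6), NAC002 (171 ± 14.5), NAC001 (106 ± 8.89), NAC032 (98.3 ± 3.25), NAC072 (53.2 ± 5.41), NAC055 (36.3 ± 5.34), NAC019 (12.9 ± 3.52) and NAC003 (12.2 ± 2.8), with overlap between NAC001 and NAC032 and between NAC019 and NAC003. Under DMSO, NAC032 and NAC003 stood higher in the order. NAC001, at 15.4 CPM per kb in agb1 and 13.3 in WT under DMSO at 3 h, was beside NAC003, at 14.2 and 18.3. In each genotype and at both times the NAC001 level passed that of NAC003 by a wide gap only with NAE.

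Across the 8 groups the highest mean of NAC001 was agb1 under NAE at 3 h. For NAC002, NAC019, NAC032, NAC055, NAC072, NAC081 and NAC102 it was WT under NAE at 3 h, whose range overlapped that of agb1 under NAE for NAC002, NAC032 and NAC102. NAC003 was highest in WT under DMSO at 3 h and lowest in agb1 under NAE at 3 h. Below the NAE groups, the DMSO groups of NAC001 all overlapped their neighbours, as did those of NAC081.

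The 9 genes made up a large part of the transcripts of the NAC loci. Summed per kilobase, they were 48.8% (47.3% to 50%) of all 121 NAC loci in agb1 under NAE at 3 h and 29.8% (21.9% to 36.7%) in agb1 under DMSO, as the median and range of 3 libraries. In WT at 3 h the shares were 47.7% (46.5% to 49.6%) under NAE and 25.3% (24.1% to 31.6%) under DMSO. At 1 h they were 50% (49.7% to 51%) in agb1 under NAE, 36.6% (34.5% to 37.1%) in agb1 under DMSO, 47.5% (47.4% to 50.2%) in WT under NAE and 34.1% (31.4% to 34.7%) in WT under DMSO. No NAE library overlapped a DMSO library of the same genotype and time. The shares under NAE ran between 46.5% and 51% at both times, while the summed level of the 9 was 1170 to 1210 CPM per kb at 3 h in agb1 and 548 to 588 at 1 h, and 1330 to 1410 at 3 h in WT and 471 to 566 at 1 h.

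**Figure D4:**
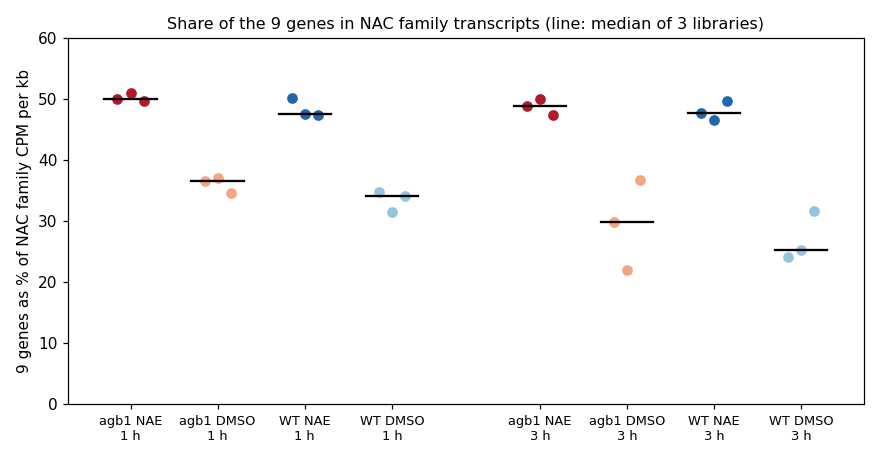
Share of the 9 genes in the summed CPM per kilobase of 121 NAC loci, in percent, for each library by group; lines are medians of 3 libraries. NAE groups lie between 46.5% and 51% and DMSO groups between 21.9% and 37.1%.

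Within the family NAC081 and NAC102 held ranks 1 to 3 in all 8 groups. NAC001 held rank 6 in agb1 and 7 in WT under NAE at 3 h, and ranks 20 and 22 under DMSO. NAC055 held ranks 24 and 20 under NAE at 3 h in agb1 and WT, and rank 39 in both under DMSO. Of the 10 largest rises among tested NAC loci, the 9 genes supplied 6 in agb1 and 5 in WT at 1 h, out of 88 loci, and 5 in agb1 and 6 in WT at 3 h, out of 86. These counts are a description, since the genes were chosen with such values known.

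Other NAC loci also rose. Of the 79 tested at 1 h, 11 rose and 4 fell in agb1, beside 8.89% of all genes called higher and 4.92% lower, and 12 rose and 7 fell in WT, beside 12.4% and 8.02%. Of the 77 tested at 3 h, 30 rose and 11 fell in agb1, beside 24.5% and 26% of all genes, and 31 rose and 11 fell in WT, beside 29.4% and 29.1%. Their median log2 fold change at 3 h was 0.3 in agb1 and 0.39 in WT. NAC013, a membrane-bound factor of mitochondrial retrograde signalling, had the largest, 3.37 (SE 0.2) in agb1 and 3.85 (SE 0.21) in WT. NAC053, another membrane-bound member known from proteasome stress, rose in all 4 comparisons: by 0.86 in agb1 and 1.05 in WT at 1 h, and by 2.15 in agb1 and 2.61 in WT at 3 h. NAC100 fell in all 4, by 0.95 in agb1 and 0.93 in WT at 3 h. NAC1, known from lateral root formation, fell by 0.88 in agb1 and 1.34 in WT at 3 h. A list of 13 membrane-bound NAC genes, released from membranes by cleavage, was also read and need not be complete. At 1 h it had 5 rises and no fall in agb1, and 6 rises and 1 fall in WT. At 3 h it had 8 rises and 1 fall in agb1, and 10 rises and no fall in WT. These counts stand beside the same shares of all genes at each time. NAC017, the retrograde regulator related to NAC013, had 0.1 (adjusted p = 0.441) in agb1 and rose by 0.57 (adjusted p = 0.000344) in WT at 3 h. Of the tested NAC loci outside the 9 genes, NAC042 and NAC094, both named after their values were seen, had a lower log2 NAE effect in agb1 than in WT at 3 h. For NAC042 the difference was -1.46 (adjusted p = 0.0177), with -0.17 (adjusted p = 0.505) in agb1 and a rise of 1.29 (adjusted p = 0.000104) in WT. For NAC094 it was -1.95 (adjusted p = 0.0289), with a called fall in agb1, at -1.76 (adjusted p = 0.000266), and 0.19 (adjusted p = 0.62) in WT.

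**Figure D5:**
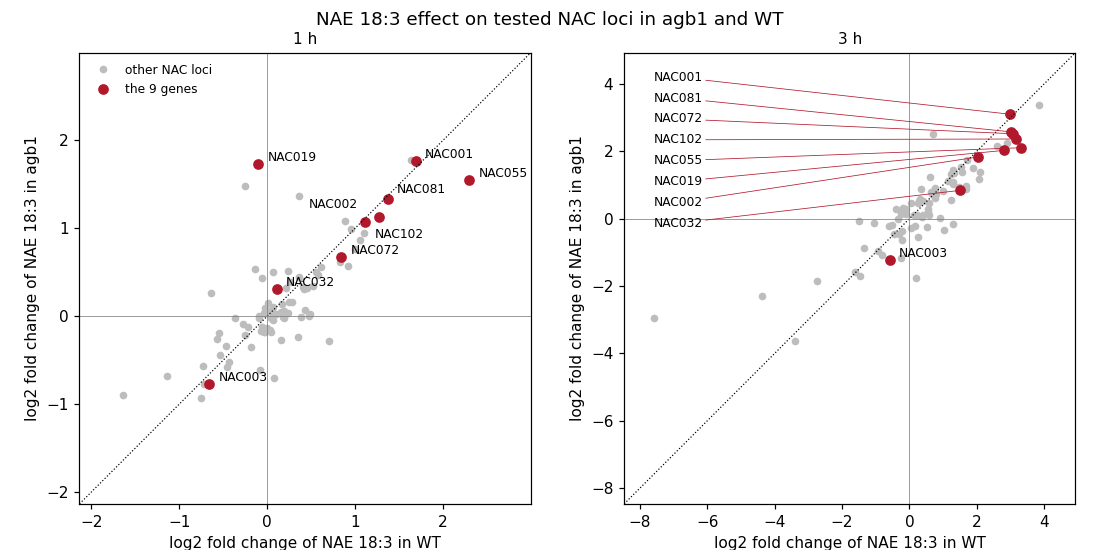
Log2 fold change of NAE 18:3 in agb1 (vertical) against WT (horizontal) for tested NAC loci at 1 h and 3 h; red points are the 9 genes and the dotted line marks equal values. NAC019 at 1 h (1.73 in agb1 and -0.1 in WT) lies far above the line, and at 3 h 8 of the 9 genes lie below it. Without replicate 3 of agb1 under DMSO at 3 h, the difference of agb1 minus WT was above 0 for NAC002 (0.09) and NAC019 (0.41) too.

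NAC055 and NAC019 each have a NAC gene next to them. AT3G15510, beside NAC055, rose in all 4 comparisons, by 0.94 in agb1 and 1.1 in WT at 1 h and by 1.44 in agb1 and 1.28 in WT at 3 h. AT1G52880, beside NAC019, was not called at 1 h and rose at 3 h by 1.03 (SE 0.16) in agb1 and 1.31 (SE 0.16) in WT. At 1 h its log2 fold change was -0.14 in agb1 (adjusted p = 0.64), where NAC019 rose.

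Factors reported to act before these genes were read from a list of 11: the jasmonate factors MYC2, MYC3 and MYC4, the abscisic acid factors ABF1 to ABF4, and SCL14 with TGA2, TGA5 and TGA6, which act before the ATAF branch in chemical detoxification. MYC2 was not among the 10 tested. Of these 10, 3 rose and none fell in each genotype at 1 h. At 3 h, 3 rose and 3 fell in agb1, and 5 rose and 3 fell in WT. In percent, 30% rose in each genotype at 1 h, 30% rose and 30% fell in agb1 at 3 h, and 50% rose and 30% fell in WT at 3 h. The shares over all tested genes were 8.89% and 12.4% called higher at 1 h in agb1 and WT, 24.5% higher and 26% lower in agb1 at 3 h, and 29.4% higher and 29.1% lower in WT at 3 h, so at 3 h the falls in both genotypes and the rises in agb1 were near those of all genes. ABF4 rose by 0.95 (SE 0.15) in agb1 and 1.43 (SE 0.16) in WT at 3 h, and SCL14 by 0.78 (SE 0.12) in agb1 and 1.08 (SE 0.13) in WT. MYC4 fell by 1.49 (SE 0.14) in agb1 and 1.71 (SE 0.14) in WT, and TGA2 fell by 0.62 in agb1 and 0.64 in WT. ABF3 rose at 1 h, by 0.49 in agb1 and 0.78 in WT, and at 3 h, by 0.99 in agb1 and 1.15 in WT. ABF2 fell at 3 h, with log2 fold changes of -0.51 in agb1 and -0.49 in WT, and ABF1 was not called at either time. In WT at 3 h TGA5 (0.48) and MYC3 (0.44) rose, and in agb1 they had -0.04 and 0.09 and were not called.

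Genes reported as targets of factors among the 9 were read from a list of 18. At 1 h, 6 of 16 tested rose and none fell in agb1, and 5 rose and none fell in WT. At 3 h, 10 of 17 rose and 3 fell in agb1, and 10 rose and 1 fell in WT. Over all tested genes, 8.89% were called higher in agb1 and 12.4% in WT at 1 h, and 24.5% higher and 26% lower in agb1 and 29.4% higher and 29.1% lower in WT at 3 h. The median log2 fold change was 0.22 in agb1 and 0.19 in WT at 1 h, and 0.86 in agb1 and 1.05 in WT at 3 h. NCED3, the abscisic acid synthesis enzyme that ATAF1 is reported to activate, averaged 12.1 ± 0.825 CPM in agb1 under NAE and 2.38 ± 0.491 CPM in agb1 under DMSO at 1 h (SD, n = 3). It rose by 2.37 (SE 0.16, adjusted p = 2.14e-07) in agb1 and 2.03 (SE 0.16, adjusted p = 6.16e-07) in WT at 1 h, and by 3.89 (SE 0.47) and 3.41 (SE 0.45) at 3 h. ABCG40, an abscisic acid importer, averaged 5000 ± 578 CPM in agb1 under NAE and 24.8 ± 15.5 CPM in agb1 under DMSO at 3 h, and 5660 ± 1100 CPM in WT under NAE and 20.5 ± 5.88 CPM in WT under DMSO. It rose by 7.66 (SE 0.47, adjusted p = 4.73e-08) in agb1 and 8.11 (SE 0.48, adjusted p = 2.35e-08) in WT. ERD1, a chloroplast protease subunit whose promoter the NAC019 branch is known to bind, rose at 3 h by 1.91 (SE 0.22) in agb1 and 2.65 (SE 0.23) in WT.

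GLK1, a chloroplast development factor that ATAF1 is reported to repress, rose at 1 h by 0.49 (SE 0.12, adjusted p = 0.0101) in agb1 and 0.37 (SE 0.12, adjusted p = 0.0366) in WT, while NAC002 rose in both. At 3 h GLK1 averaged 32.9 ± 2.54 CPM in agb1 under NAE and 47.9 ± 4.69 CPM in agb1 under DMSO, and 56.5 ± 2.85 CPM in WT under NAE and 171 ± 11.8 CPM in WT under DMSO. It fell by 0.55 (SE 0.1, adjusted p = 0.000544) in agb1 and 1.59 (SE 0.1, adjusted p = 2.7e-08) in WT. The NAE effects on GLK1 differed between genotypes by 1.05 (SE 0.14, adjusted p = 0.00337), against -0.21 (SE 0.47, adjusted p = 0.858) for NAC002. The lower level in agb1 under DMSO enters that difference. BAS1, the brassinosteroid-inactivating enzyme that ATAF2 is reported to repress, fell by 0.62 (SE 0.16, adjusted p = 0.00603) in agb1 at 3 h and had -0.14 (SE 0.17, adjusted p = 0.495) in WT. SOB7, another gene of the target list, went the other way. It rose by 1.23 (SE 0.26, adjusted p = 0.000955) in WT at 3 h and had 0.39 (SE 0.24, adjusted p = 0.202) in agb1. At 1 h SOB7 rose by 0.52 (SE 0.16, adjusted p = 0.0399) in agb1 and had 0.35 (SE 0.16, adjusted p = 0.147) in WT. VSP1, a jasmonate-induced storage protein, rose at 3 h by 3.14 (SE 0.24) in agb1 and 1.66 (SE 0.23) in WT. ICS1, the salicylic acid synthesis enzyme reported to be repressed by NAC019, NAC055 and NAC072, averaged 71.4 ± 10.1 CPM in agb1 and 37.2 ± 3 CPM in WT under NAE at 3 h. In agb1 ICS1 rose with NAE, as NAC019, NAC055 and NAC072 did, by 0.41 (SE 0.09, adjusted p = 0.00623) at 1 h and 1.4 (SE 0.18, adjusted p = 2.25e-05) at 3 h. At 1 h under NAE ICS1 was higher in agb1 than in WT (0.47, SE 0.09, adjusted p = 0.00537), as was NAC019. In WT the NAE effect on ICS1 at 3 h was 0.32 (SE 0.18, adjusted p = 0.141). The NAE effect on ICS1 at 3 h was larger in agb1 by 1.07 (SE 0.25, adjusted p = 0.0375), and that on VSP1 by 1.47 (SE 0.32, adjusted p = 0.0275). Between agb1 and WT, ICS1 was higher in agb1 under NAE at 3 h (0.93, SE 0.18, adjusted p = 0.00257), whereas VSP1 had 0.23 (SE 0.21, adjusted p = 0.456) under NAE and was lower in agb1 under DMSO (-1.24, SE 0.23, adjusted p = 0.00281).

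The genes whose level followed each of the 9 most closely were found by Pearson r of log2(CPM + 1) over the 24 libraries, which share treatments and times. NAC081 was closest to AT2G16900 (r = 0.9947) and NAC001 to AT3G25610 (r = 0.993). NAC081 and NAC001 shared a close gene, AT1G63840, a RING/U-box protein, at 0.9939 and 0.9904. NAC081 and NAC102 shared AT1G76600, at 0.9919 and 0.9881. NAC072 was closest to APS1, an ATP sulfurylase (0.9844), and NAC055 had HEMA2, a glutamyl-tRNA reductase, among its 3 closest (0.9766). NAC002 had NAC053 among its 3 closest (0.9717). NAC032 was close to GDH2, a glutamate dehydrogenase (0.9331), and NAC019 was closest to NGA3 (0.9586). NAC003 had the weakest closest gene, RGXT3 (0.875). Among the 9 genes themselves, r between pairs without NAC003 ran between 0.65 for NAC019 with NAC032 and 0.98 for NAC081 with NAC102 and with NAC001, and every pair with NAC003 was below 0, at -0.65 to -0.22.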

How the data were processed

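Poly(A) RNA of whole seedlings was prepared with a stranded kit and read as 2 x 75 bases, per the labels' protocols. The values used are counts of reads per gene locus, one table per time point, as deposited by the authors; the submitters' processing notes name STAR, DESeq2 and the build TAIR10, and the counting tool and its strand setting are not given in the sources used here. Deposited normalized tables were not used. The members and gene lists were chosen with earlier results of these data known. Genes were named by a rule: the 9 members and AGB1; up to 2 called genes per direction, list and NAE comparison; the 3 largest rises and 2 largest falls of other NAC genes with at least 5 CPM; and the 3 genes most like each member among those with at least 5 CPM. Genes named beyond it were chosen after their values were seen: ICS1, SOB7, ABF1, ABF2, MYC3, TGA5, NAC017, NAC094, WOX5, SCR, LHCB1.3, LHCB2.1, CA1, and neighbours and overlapping genes. So were further values of named genes.

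Counts were analysed with edgeR 4.0.16 in R 4.3.3: filterByExpr by group (minimum count 10, minimum total 15), TMM scaling, robust quasi-likelihood F tests over the 12 libraries of a time point (21255 loci at 1 h, 20672 at 3 h) or over 24 libraries (21700 loci) for times, and Benjamini-Hochberg adjustment over all loci tested. SE is the log2 fold change divided by the square root of F. The scripts were tested on simulated data. Alternatives were RLE scaling, no filter, DESeq2 1.42.0, a replicate block, only the 6 libraries compared, and each library left out. Names, products and exon lengths are from RefSeq TAIR10.1. Sequences were not analysed here.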

Additional observations from a re-analysis of the deposited data

Results flagged for a closer look

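The effect of NAE 18:3 differed between 3 h and 1 h for 11 of the 18 combinations of gene and genotype, each by a test of the difference itself (log2 NAE effect at 3 h minus that at 1 h, edgeR over 24 libraries). In agb1 the difference was 1.35 for NAC001 (SE 0.2, adjusted p = 1.97e-05), 1.87 for NAC072 (SE 0.3, adjusted p = 6.5e-05), 1.27 for NAC081 (SE 0.24, adjusted p = 0.00028) and 1.32 for NAC102 (SE 0.31, adjusted p = 0.00252). In WT it was 1.33 for NAC001 (SE 0.21, adjusted p = 1.55e-05), 2.97 for NAC019 (SE 0.79, adjusted p = 0.00403), 1.41 for NAC032 (SE 0.4, adjusted p = 0.00634) and 1.06 for NAC055 (SE 0.39, adjusted p = 0.0312). NAC072 had 2.25 (SE 0.3, adjusted p = 4e-06), NAC081 1.69 (SE 0.24, adjusted p = 6.18e-06) and NAC102 2.08 (SE 0.32, adjusted p = 1.72e-05) in WT. Over all tested genes, 17% were called higher and 17.5% lower for this difference in agb1, and 25.2% and 22.8% in WT. The NAC055 call in WT was lost in 5 of 16 alternatives, and the other 10 calls held in all 16.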

How the results depend on the processing

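Most calls for the 9 genes in the 4 NAE comparisons held. Leaving out single libraries left 8 called genes in agb1 and 7 in WT at 1 h, and 8 to 9 in each genotype at 3 h. Between the genotypes it left 1 to 4 genes under NAE and 0 to 2 under DMSO at 1 h, and 2 to 5 under NAE and 0 to 3 under DMSO at 3 h. It left 0 for the genotype difference at 1 h and 0 to 2 at 3 h, and 4 to 7 genes in agb1 and 6 to 8 in WT for 3 h minus 1 h. DESeq2 called 2 genes between agb1 and WT under DMSO at 1 h and 1 for the genotype difference at 3 h. Between agb1 and WT under DMSO at 3 h there were 0 calls with RLE scaling, with no filter and with only the 6 libraries compared. Under NAE at 3 h only the 6 libraries compared gave 6 calls. The NAC002 value between agb1 and WT under DMSO at 3 h, 0 in the main analysis, was 0.01 with no filter and 0 with only the 6 libraries compared. Samples with the same replicate number had r between -0.24 and 0.24 at 1 h (median 0.01) and between -0.17 and 0.37 at 3 h (median -0.05). Samples with different numbers had r between -0.27 and 0.18 at 1 h (median 0.02) and between -0.38 and 0.18 at 3 h (median 0). The medians show no pairing by number, but 3 replicates per group cannot exclude it. The fit with a replicate block called 1 gene, NAC055, for the genotype difference at 3 h (adjusted p = 0.0328) and changed no other call. Leaving out single libraries turned the sign of 18 gene values, none of them called before. Between agb1 and WT under DMSO at 3 h these ran from -0.08 to 0.34 for NAC001, -0.27 to 0.4 for NAC002, -1.24 to 0.41 for NAC019, -0.34 to 0.34 for NAC055 and -0.25 to 0.38 for NAC081. In other genotype comparisons they ran from -0.15 to 0.08 for NAC003 under DMSO at 1 h, -0.01 to 0.09 for NAC081 under NAE at 1 h and -0.15 to 0.04 for NAC032 under NAE at 3 h. Genotype differences ran from -0.05 to 0.18 for NAC001, -0.27 to 0.02 for NAC003, -0.13 to 0.03 for NAC081 and -0.13 to 0.05 for NAC102 at 1 h, and from -0.61 to 0.09 for NAC002 and -1.24 to 0.41 for NAC019 at 3 h. The difference of 3 h minus 1 h ran from -0.06 to 1.46 for NAC019 in agb1 and from -0.12 to 0.21 for NAC003 in WT, and the NAE effect in WT at 1 h from -0.31 to 0.07 for NAC019 and -0.01 to 0.2 for NAC032. Over all genes, DESeq2 called 16 higher and 65 lower for the genotype difference at 1 h, where edgeR called 0 and 16, and 686 higher and 705 lower at 3 h, where edgeR called 272 and 341; between agb1 and WT under DMSO at 3 h, only the 6 libraries compared gave 846 higher and 1620 lower, where the 12 gave 1621 and 2300. The causes were not tested. Depth limits NAC019 at 1 h most, where single libraries held as few as 5 reads.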
